A study of Mus musculus with 6 samples.

Results

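The mouse genome has 8 Smad genes, which encode the signal transducers of the TGF-beta family, and all of them were selected by symbol from the 35415 genes counted in mouse ovaries. All 8 were expressed highly enough to be tested, among 16841 tested genes. Ovaries were taken in estrus at an age of 3 months, and each library is labelled as its own mouse. The groups were 3 wild-type mice and 3 Rnf111+/- mice, which carry 1 disrupted copy of Rnf111 made by CRISPR-Cas9 editing in a study of premature ovarian insufficiency. The labels name neither the edited position nor which of the edited lines was sequenced, and they give no treatment.

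TGF-beta family ligands bind pairs of type I and type II receptor kinases, and the activated type I receptor phosphorylates a receptor-regulated SMAD. SMAD2 and SMAD3 serve TGF-beta, activin and GDF9, while SMAD1, SMAD5 and SMAD9 serve bone morphogenetic proteins (BMPs) and anti-Mullerian hormone. Both kinds join the common SMAD4 and move to the nucleus to regulate genes. SMAD6 and SMAD7 are inhibitory SMADs that act at the receptor and are themselves induced by the pathway. In the ovary these arms act on follicle growth, granulosa cells and ovulation. Rnf111 encodes Arkadia, a ubiquitin ligase that targets SMAD7 protein for degradation, so the Smad transcripts belong to the pathway on which the disrupted gene acts. Only RNA was measured here, not SMAD protein or its phosphorylation.

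Rnf111 itself was at 53.8, 53.5 and 54.4 CPM (the read count scaled to a fixed library size) in the wild-type libraries and at 44.2, 44.9 and 44.7 CPM in the Rnf111+/- libraries. It fell by 0.27 on the log2 scale (SE 0.07, adjusted p = 0.04 by edgeR's quasi-likelihood test). The call held without wild-type replicate 3 (adjusted p = 0.0421), and leaving out any other library ended it, at an adjusted p between 0.106 and 0.146. With all libraries it was lost with upper-quartile scaling (0.0602) and with no filter on low counts (0.0762). Libraries held 38261449 to 39474515 counts. Wild-type replicate 3 stood apart from the other libraries: the summed level of 6 oviduct markers was 186 CPM there against 5.85 to 12.8 CPM elsewhere, and that of 10 granulosa markers was 2652 CPM against 4884 to 7133 CPM. Its 7 macrophage markers summed to 324 CPM against 168 to 242 CPM, and its 5 adipocyte markers to 60.6 CPM against 13.9 to 44.0 CPM. Its 8 luteal markers summed to 9733 CPM, against 6886 and 8306 CPM in the other wild-type libraries and 9397 to 13957 CPM in Rnf111+/- libraries. The test of each Smad gene and the counts of each called list are therefore also given without wild-type replicate 3.

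Of the 8 Smad genes, 2 rose in Rnf111+/- ovaries (Smad3 and Smad7), none fell and 6 did not pass the test. Over all tested genes, 9.64% were called at an adjusted p under 0.05, with 3.9% rising and 5.74% falling. Smad3, Smad4 and Smad7 had groups that did not overlap, all with higher values in Rnf111+/- ovaries, and 32% of all tested genes had such groups. The log2 difference was above 0 for 6 Smad genes and below 0 for 2, with a median of 0.16 against -0.01 over all tested genes. The changes were small: Smad3 reached 132% and Smad7 136% of the wild-type level.

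**Figure D1:**
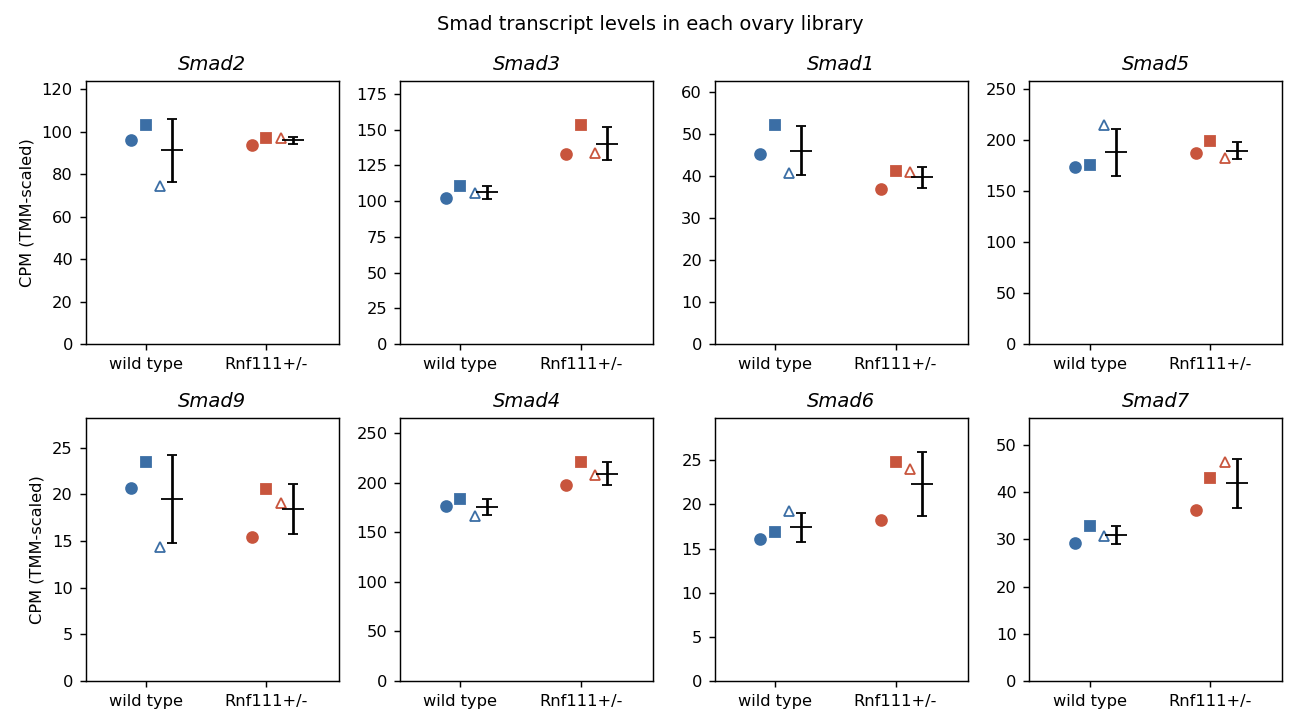
TMM-scaled CPM of each Smad gene in the 3 wild-type (blue) and 3 Rnf111+/- (red) libraries. Circles, filled squares and open triangles are replicates 1, 2 and 3, and the black bar beside them is the mean with its SD. The groups are apart for Smad3, Smad4 and Smad7, and wild-type replicate 3 is the lowest library for Smad2 and Smad9 and the highest for Smad5.

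Smad3, the transducer that binds DNA directly downstream of TGF-beta and activin receptors, was at 102, 111 and 106 CPM in wild-type libraries and at 133, 153 and 134 CPM in Rnf111+/- libraries. Every Rnf111+/- library lay above every wild-type library, and the means were 106 ± 4.33 and 140 ± 11.5 CPM (SD, n = 3 each). The log2 fold change was 0.40 ± 0.08 (SE) with an adjusted p of 0.0169 by edgeR. An interval of 2 standard errors reached from 119 to 147% of the wild-type level. Smad3 was also called by DESeq2 (adjusted p = 0.000637) and limma-voom (0.021), and without wild-type replicate 3 it was at 0.41 (0.00651). Its call was lost without wild-type replicate 1 (adjusted p = 0.0612) and without Rnf111+/- replicate 2 (0.0675), at log2 fold changes of 0.38 and 0.34.

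Smad2, the other transducer of this arm, was at 95.9, 103 and 74.3 CPM in wild-type libraries and at 93.8, 96.8 and 96.9 CPM in Rnf111+/- libraries. The Rnf111+/- values fell inside the wild-type range, in which replicate 3 was the lowest. The log2 fold change was 0.07 ± 0.11 (adjusted p = 0.739 by edgeR), with an interval from 89.9 to 123% of the wild-type level. It turned to -0.04 ± 0.07 without wild-type replicate 3 (adjusted p = 0.719). On a length-scaled basis the ratio of Smad3 to Smad2 was 1.68, 1.70 and 2.25 in wild-type libraries and 2.25, 2.51 and 2.19 in Rnf111+/- libraries. Wild-type replicate 3 lay among the Rnf111+/- libraries in this ratio, so the groups overlapped, and the difference between the changes of Smad2 and Smad3 was not tested.

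The transducers of the BMP arm had no call. Smad1 was at 45.1, 52.1 and 40.7 CPM in wild-type libraries and at 36.8, 41.1 and 41.0 CPM in Rnf111+/- libraries. Its groups overlapped through wild-type replicate 3, and the log2 fold change was -0.21 ± 0.11 (adjusted p = 0.249 by edgeR), with an interval from 74.4 to 99.8% of the wild-type level. This interval of 2 standard errors ended below the wild-type level, yet the unadjusted p was 0.0753 by edgeR. The interval is therefore not a test of Smad1. Without wild-type replicate 3 the log2 fold change was -0.28 ± 0.09 (adjusted p = 0.0641), still short of the threshold.

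Smad5, the most abundant transducer of the BMP arm, was at 174, 176 and 215 CPM in wild-type libraries and at 187, 199 and 182 CPM in Rnf111+/- libraries. The log2 fold change was 0.01 ± 0.09 (adjusted p = 0.957 by edgeR), with an interval from 88.6 to 115% of the wild-type level. Wild-type replicate 3 was the highest library for Smad5, and without it the value was 0.13 ± 0.07 (adjusted p = 0.233). Smad9, the least abundant Smad gene per length, was at 20.7, 23.5 and 14.4 CPM against 15.4, 20.6 and 19.1 CPM. Its groups overlapped over most of their range, and its log2 fold change of -0.09 ± 0.19 (adjusted p = 0.825 by edgeR) had the largest standard error of the family, with an interval from 72.2 to 123% of the wild-type level. It was at -0.25 ± 0.14 without wild-type replicate 3 (adjusted p = 0.254). Wild-type replicate 3 was 0.62 lower on the log2 scale than the mean of the other wild-type libraries for Smad9 (-0.62) and 0.42 lower for Smad2 (-0.42), and higher for Smad5 (0.30).

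Smad4, the common partner that joins both arms, was at 176, 184 and 167 CPM in wild-type libraries and at 198, 221 and 208 CPM in Rnf111+/- libraries. All Rnf111+/- libraries lay above all wild-type libraries, but the test narrowly missed the threshold (log2 0.25 ± 0.07, adjusted p = 0.0619 by edgeR). The level was 119% of wild type, with an interval from 108 to 131%. Smad4 passed with DESeq2 (adjusted p = 0.0315), with upper-quartile scaling (0.0381) and with a stricter filter on low counts (0.0446), and over all alternatives the adjusted p ranged from 0.0315 to 0.208. Without wild-type replicate 3 it was at 0.23 ± 0.07 (adjusted p = 0.0512).

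Smad7, the inhibitory SMAD that recruits ubiquitin ligases to type I receptors and whose protein Arkadia targets, was at 29.1, 32.9 and 30.7 CPM in wild-type libraries and at 36.2, 42.9 and 46.5 CPM in Rnf111+/- libraries. The groups did not overlap, and the log2 fold change was 0.44 ± 0.11 (adjusted p = 0.0398 by edgeR), with an interval from 117 to 158% of the wild-type level. The call held without wild-type replicate 3 (adjusted p = 0.0238) and without Rnf111+/- replicate 1 (0.0324). It was lost without wild-type replicates 1 (0.11) and 2 (0.0714) and without Rnf111+/- replicates 2 (0.133) and 3 (0.141), as well as with limma-voom (0.0502).

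Smad6, the inhibitory SMAD that acts mainly on BMP signals, was at 16.1, 16.9 and 19.3 CPM in wild-type libraries and at 18.2, 24.9 and 24.0 CPM in Rnf111+/- libraries. Rnf111+/- replicate 1 lay below wild-type replicate 3, so the groups overlapped, while the other Rnf111+/- libraries were above all wild-type libraries. The log2 fold change of 0.36 ± 0.14 did not pass (adjusted p = 0.158 by edgeR), nor did it in any alternative (adjusted p from 0.0589 to 0.404). Without wild-type replicate 3 it was at 0.45 ± 0.14 (adjusted p = 0.0589). Its unadjusted p with all libraries was 0.0343. Over all tested genes 25.5% had an unadjusted p under 0.05, as did 4 of the 8 Smad genes.

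**Figure D2:**
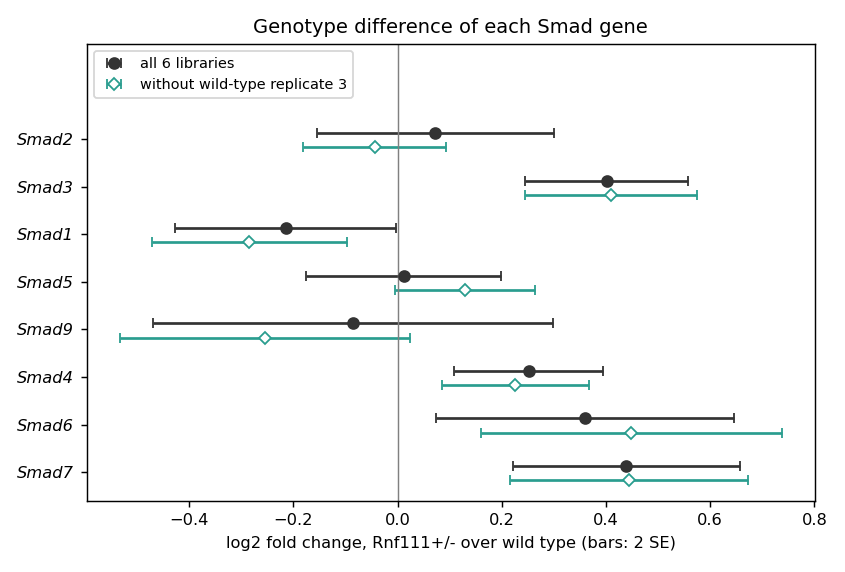
Log2 fold change of each Smad gene, Rnf111+/- over wild type, with bars of 2 SE, in the edgeR fit of all 6 libraries (black) and without wild-type replicate 3 (open diamonds). Smad3 and Smad7 lie at 0.40 and 0.44 in the fit of all libraries, and Smad2 is the gene whose sign differs between the fits.

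Smad3 and Smad6 are neighbours on mouse chromosome 9, their annotated starts lying 264 kb apart on the same strand. Their promoters are shown because SMAD proteins can bind Smad genes themselves and because the transcripts of this pair had similar log2 differences (0.40 and 0.36). Smad6 was not called, and Smad7 was about as near to Smad3 (0.44). A shared control of the pair was not tested. RefSeq promoter windows of build GRCm38.p6, reaching from 250 bases before to 50 bases after a start, were found for 5 of the 8 genes (Smad1, Smad3, Smad5, Smad6 and Smad9), with 3 starts for Smad5. The windows of 300 bases were searched on both strands for the palindromic SMAD-binding element GTCTAGAC, for the box CAGAC and for the GC-rich element GGCGCC, which do not contain one another. The sequences below run 5′ to 3′ on the minus strand, from 250 bases before to 20 bases after the start, at chr9:63757975-63758244 for Smad3 and chr9:64022040-64022309 for Smad6, with matches in capitals.
Smad3 promoter: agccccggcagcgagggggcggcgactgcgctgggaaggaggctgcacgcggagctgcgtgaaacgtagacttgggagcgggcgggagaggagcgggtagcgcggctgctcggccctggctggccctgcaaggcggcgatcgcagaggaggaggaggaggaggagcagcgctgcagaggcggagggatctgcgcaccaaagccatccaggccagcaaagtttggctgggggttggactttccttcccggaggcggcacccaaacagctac
Smad6 promoter: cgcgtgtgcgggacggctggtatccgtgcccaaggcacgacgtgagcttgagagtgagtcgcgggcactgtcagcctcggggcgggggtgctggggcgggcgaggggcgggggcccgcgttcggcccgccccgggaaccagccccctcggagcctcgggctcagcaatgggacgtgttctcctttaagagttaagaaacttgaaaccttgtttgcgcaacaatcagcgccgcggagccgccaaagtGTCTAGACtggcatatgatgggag
The Smad6 window held the full palindrome, which began 4 bases before the annotated start and so spanned it. Of all 32851 promoter windows of the same length, 0.213% held GTCTAGAC, 49.6% held CAGAC and 11.9% held GGCGCC. None of the 3 motifs was found in the windows of Smad3 and Smad1, the Smad9 window held GGCGCC, and of the 3 Smad5 windows, 2 overlapping ones shared a single GGCGCC site and the other held CAGAC. A match describes the letters in the reference sequence and no binding was measured. The promoters come from another genome build than the counts, so no position was carried over to the counts.

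Levels of different genes were compared only after division by the exon length of each gene (all annotated exons merged, GENCODE M21), as CPM per kb. In wild-type ovaries Smad4 was the highest at 47.3 ± 2.27 CPM per kb (SD, n = 3), followed by Smad5 (25.3 ± 3.14), Smad3 (19.1 ± 0.781), Smad2 (10.4 ± 1.71), Smad1 (7.35 ± 0.917), Smad7 (6.83 ± 0.413), Smad6 (5.43 ± 0.513) and Smad9 (3.63 ± 0.873). Each neighbouring pair in this order was separated in all wild-type libraries except Smad1 and Smad7, which overlapped. In Rnf111+/- ovaries the order was Smad4 (56.3 ± 3.14), Smad5 (25.6 ± 1.16), Smad3 (25.3 ± 2.07), Smad2 (10.9 ± 0.196), Smad7 (9.26 ± 1.15), Smad6 (6.97 ± 1.13), Smad1 (6.33 ± 0.392) and Smad9 (3.42 ± 0.498). Smad5 and Smad3 overlapped there, as did Smad6 and Smad1. Smad7 thus stood level with Smad1 in wild-type ovaries and above it in every Rnf111+/- library, and Smad3 drew level with Smad5. The order depends on the lengths used: with the longest coding transcript in place of merged exons, Smad1 had 12.2 CPM per kb in wild type and 10.5 in Rnf111+/- ovaries, above Smad7 in mean in both (7.22 and 9.79), and above Smad2 in wild type (11.3).

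**Figure D3:**
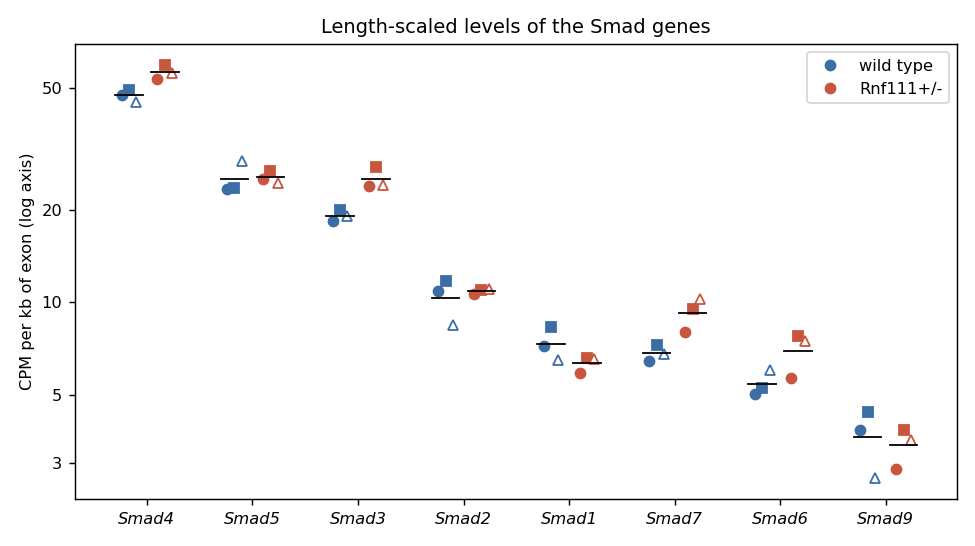
CPM per kb of exon on a log axis for the 8 Smad genes, ordered by the wild-type mean, with wild-type libraries in blue and Rnf111+/- libraries in red. Circles, filled squares and open triangles are replicates 1, 2 and 3 and the short lines are means. Levels run from 47.3 CPM per kb for Smad4 to 3.63 for Smad9 in wild type.

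The makeup of the Smad transcripts was then compared on the length-scaled levels, as a description without a test. Their sum was 123, 130 and 123 CPM per kb in wild-type libraries and 136, 153 and 144 CPM per kb in Rnf111+/- libraries, so every Rnf111+/- ovary held more. Smad1, Smad5 and Smad9 together made up 28.1, 28.0 and 30.9% of the sum in wild-type libraries and 25.04, 24.4 and 24.2% in Rnf111+/- libraries. The share of the BMP arm was lower in every Rnf111+/- library, with a mean difference of -4.46 percentage points, or -3.49 without wild-type replicate 3. A share depends on the levels of all Smad genes, and none of Smad1, Smad5 and Smad9 was called. In mean, wild-type and Rnf111+/- ovaries had 7.35 and 6.33 CPM per kb of Smad1. The levels were 25.3 and 25.6 for Smad5, and 3.63 and 3.42 for Smad9.

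Smad2 and Smad3 made up 23.9, 24.4 and 22.3% in wild-type libraries and 25.6, 25.3 and 24.5% in Rnf111+/- libraries. The ratio of the SMAD2 and SMAD3 arm to the BMP arm was 0.850, 0.872 and 0.722 in wild-type libraries and 1.02, 1.04 and 1.014 in Rnf111+/- libraries. These groups did not overlap, and the Rnf111+/- libraries lay close together. The Smad4 share was 36.4 to 38.7% in wild-type and 38.96 to 39.3% in Rnf111+/- libraries. Inhibitory Smad6 and Smad7 made up 9.35, 9.64 and 10.4% in wild-type libraries and 10.1, 11.3 and 12.4% in Rnf111+/- libraries, where Rnf111+/- replicate 1 lay below wild-type replicate 3. Without wild-type replicate 3 the mean difference in share went from 1.61 to 1.005 percentage points for Smad2 and Smad3 and from 1.383 to 0.729 for Smad4, and without Rnf111+/- replicate 3 it went from 1.47 to 0.908 for the inhibitory pair.

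Within the family, inhibitors and transducers were also set against each other. The ratio of Smad6 and Smad7 to the 5 receptor-regulated genes was 0.180, 0.184 and 0.195 in wild-type libraries and 0.199, 0.227 and 0.254 in Rnf111+/- libraries, with little distance between the closest libraries of the groups. The ratio of Smad7 to Smad3 was 0.351, 0.364 and 0.356 against 0.334, 0.343 and 0.426. Here the groups overlapped. The ratio of Smad7 to Smad6 overlapped too, at 1.28, 1.381 and 1.13 against 1.41, 1.22 and 1.37. In contrast, the ratio of Smad4 to Smad3 was lower in every Rnf111+/- library, at 2.58, 2.48 and 2.35 against 2.22, 2.15 and 2.32. The closest libraries of the groups, at 2.35 and 2.32, were only just apart. The ratio of Smad4 to Smad2 overlapped, at 4.35, 4.21 and 5.31 against 4.99, 5.41 and 5.07.

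**Figure D4:**
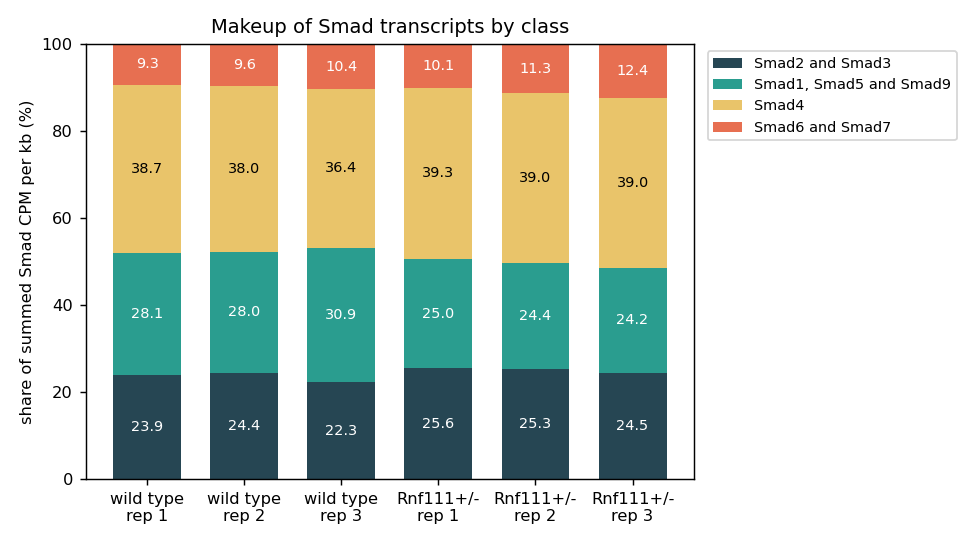
Stacked bars give the share of the summed Smad CPM per kb taken by each class in each library, with the percentage printed in each segment. The segment of Smad1, Smad5 and Smad9 is 28.0 to 30.9% in wild-type and 24.2 to 25.04% in Rnf111+/- libraries.

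The libraries also differed in markers of ovarian cell types. Beside the counts of called markers stand the shares over all tested genes, of which 3.9% rose and 5.74% fell. In Rnf111+/- ovaries, 7 of 12 oocyte markers rose, and their summed level was 252 to 336 CPM against 184 to 206 CPM in wild type. Of stromal markers 5 of 7 fell (2074 to 2447 CPM against 3375 to 3959 CPM), as did 4 of 8 endothelial markers (362 to 417 against 452 to 569 CPM), 3 of 8 muscle and pericyte markers (760 to 1012 against 1197 to 1535 CPM) and 3 of 6 surface epithelium markers (316 to 360 against 443 to 454 CPM). Of theca and interstitial markers 1 of 8 rose and 3 fell (1455 to 1683 against 2588 to 3122 CPM). Granulosa markers had 1 rise among 10 (5157 to 7133 against 2652 to 5245 CPM) and luteal markers 1 fall among 8 (9397 to 13957 against 6886 to 9733 CPM). These sums are weighted towards abundant markers and can differ in direction from most members of a list. The log2 difference was above 0 for 5 of the 8 theca and interstitial markers, and for 3 of the 8 luteal markers. Macrophage, oviduct and adipocyte markers had no call among 7, 5 and 4 tested, and no marker was at 0 in all libraries. In the fit without wild-type replicate 3, 3 luteal, 3 macrophage and 1 adipocyte marker rose and granulosa rises went from 1 to 2, while falls went from 3 to 2 among muscle and pericyte markers and from 4 to 3 among endothelial markers. Of all tested genes, 16.2% were called in that fit. In bulk tissue, fewer cells of a type and less RNA per cell cannot be told apart, and the part of cell makeup in the Smad differences was not tested.

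Genes that work around the Smads were described from lists of ligands, receptors, adaptors, enzymes, cofactors and targets. Of 112 tested genes in these lists beside the Smad genes and Rnf111, 8 rose, 14 fell and 90 did not pass, so 19.6% were called against 9.64% of all tested genes. In the fit without wild-type replicate 3, 19 of 113 rose and 15 fell (30.1%), when 16.2% of all tested genes were called. The median log2 difference of the 112 genes was 0.04 in the fit of all libraries. The lists were chosen with earlier results of these data known, so these shares are a description and not a test of the pathway.

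Upstream, 1 tested ligand of each arm rose, where 9.64% of all tested genes were called and 3.9% rose. Of 9 tested ligands of the SMAD2 and SMAD3 arm, Gdf9, the oocyte growth factor that signals to granulosa cells, rose from 47.7 ± 1.11 to 73.9 ± 9.56 CPM (log2 0.63 ± 0.10, adjusted p = 0.00707 by edgeR). Of 8 tested ligands of the BMP arm, Bmp15, its oocyte partner, rose from 14.8 ± 1.81 to 21.4 ± 1.90 CPM (0.54 ± 0.13, adjusted p = 0.0356). Both are oocyte markers, and 7 of 12 such markers rose. Without wild-type replicate 3 the counts of rises were 4 of 9 and 3 of 9. In that fit 16.2% of all tested genes were called in either direction, and 1273 of these 2795 genes rose.

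The 3 type I receptor genes that signal through SMAD2 and SMAD3 had no call by edgeR, the smallest p being that of Tgfbr1 (log2 0.06 ± 0.08, adjusted p = 0.691). Among the 4 for the BMP arm, 2 fell, where 5.74% of all tested genes fell. Acvr1, which encodes the receptor ALK2, was at 75.5 ± 13.9 against 47.5 ± 2.58 CPM (-0.67 ± 0.13, adjusted p = 0.0152). Acvrl1, the receptor of endothelial cells and itself one of the endothelial markers, was at 29.6 ± 0.392 against 22.7 ± 2.28 CPM (-0.38 ± 0.10, adjusted p = 0.0499). Bmpr1b, named after its value was seen, was higher, at 87.2 ± 33.2 against 210 ± 27.4 CPM, and did not pass (1.27 ± 0.31, adjusted p = 0.0602 by edgeR). The summed level of the 4 genes was higher in every Rnf111+/- library, at 433 to 505 against 375 to 404 CPM. Only Bmpr1b was higher in mean. Bmpr1a, also named after its value was seen, was at 202 ± 3.51 against 191 ± 12.5 CPM and did not pass. The 5 type II receptor genes had no call, and Bmpr2, with the smallest p, was at 0.81 ± 0.23 (adjusted p = 0.0767). When wild-type replicate 3 was left out, 1 of the 4 BMP type I receptors rose and 2 fell, and 1 of the type II receptors rose. In that fit 16.2% of all tested genes were called.

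Of 11 adaptor and receptor-level genes, 1 rose and 2 fell, where 9.64% of all tested genes were called. Zfyve9, which encodes SARA, the anchor that presents SMAD2 and SMAD3 to the receptor, rose from 61.0 ± 2.55 to 76.6 ± 4.92 CPM (log2 0.33 ± 0.08, adjusted p = 0.0308 by edgeR). Fkbp1a, whose product holds type I receptors inactive, fell from 335 ± 8.62 to 249 ± 10.4 CPM (-0.43 ± 0.07, adjusted p = 0.00645). Cd109, a coreceptor that restrains TGF-beta signalling, fell from 7.89 ± 1.71 to 3.85 ± 0.572 CPM (-1.03 ± 0.21, adjusted p = 0.0216). The counts without wild-type replicate 3 were 2 rises and 2 falls, when 16.2% of all tested genes were called.

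Of 15 ubiquitin ligases and deubiquitinases of the pathway, 2 rose and 3 fell, Rnf111 included, and the counts were the same without wild-type replicate 3. Among all tested genes 9.64% were called with all libraries and 16.2% without that one. Wwp1, a ligase that can work with SMAD7, fell from 103 ± 13.1 to 58.2 ± 1.69 CPM (log2 -0.82 ± 0.10, adjusted p = 0.00207 by edgeR). Nedd4l, a ligase for activated SMADs, rose by 0.75 ± 0.13. The other rise was that of Wwp2 (0.45 ± 0.12) and the third fall that of Stub1 (-0.26 ± 0.07), both named after their values were seen. None of 11 genes of SMAD dephosphorylation and nuclear transport was called by edgeR; the smallest p was that of the exportin gene Xpo4 (-0.33 ± 0.13, adjusted p = 0.172). Without wild-type replicate 3, 1 of them fell.

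Among 7 corepressor genes the homeobox gene Tgif1 rose from 105 ± 12.3 to 145 ± 13.5 CPM (log2 0.47 ± 0.10, adjusted p = 0.0256 by edgeR). Of 17 tested coactivators and DNA-binding partners 2 fell, the transcription factor genes Runx1 (-1.60 ± 0.09, adjusted p = 0.00015) and Runx2 (-1.34 ± 0.25, adjusted p = 0.0257). Leaving out wild-type replicate 3, 2 corepressors rose, and 2 partners rose and 2 fell. Calls over all tested genes came to 9.64% with all libraries and 16.2% without that one.

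Downstream, textbook targets of SMAD2 and SMAD3 moved in both directions, with 2 rises and 5 falls among 18. Over all tested genes 3.9% rose and 5.74% fell. The falls with the smallest p were those of the smooth muscle gene Tagln (log2 -1.13 ± 0.15, adjusted p = 0.00447 by edgeR), fibronectin Fn1 (-0.49 ± 0.08, adjusted p = 0.00721) and the matrix protein gene Tgfbi (-0.65 ± 0.11, adjusted p = 0.0117). The collagen gene Col1a1, named after its value was seen, fell as well (-0.68 ± 0.14). Beside Smad7 the rise was that of Ccn2, also named after its value was seen, from 56.0 ± 17.9 to 182 ± 52.9 CPM (1.70 ± 0.31, adjusted p = 0.027). Tagln and Col1a1 are also in the muscle and stromal marker lists, whose summed levels were lower in Rnf111+/- ovaries. When wild-type replicate 3 was left out, 4 of 18 rose and 5 fell, and 16.2% of all tested genes were called.

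Of 13 tested targets of the BMP arm, 2 rose and 1 fell, with the same counts without wild-type replicate 3. The share called over all tested genes was 9.64%, or 16.2% without that library. Besides Smad7, Grem1, a secreted BMP antagonist, rose from 0.510 ± 0.267 to 22.6 ± 6.77 CPM (log2 5.46 ± 0.41, adjusted p = 0.000589 by edgeR), and Id2, a dominant-negative helix-loop-helix gene, fell from 183 ± 18.004 to 65.1 ± 5.98 CPM (-1.49 ± 0.10, adjusted p = 0.00015). Id1, the textbook readout of SMAD1 and SMAD5, was at 0.12 ± 0.18 (adjusted p = 0.735), and Id3 at 0.12 ± 0.10 (adjusted p = 0.475), both named after their values were seen. Smad6 and Smad9 belong to the same target list and did not pass.

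**Figure D5:**
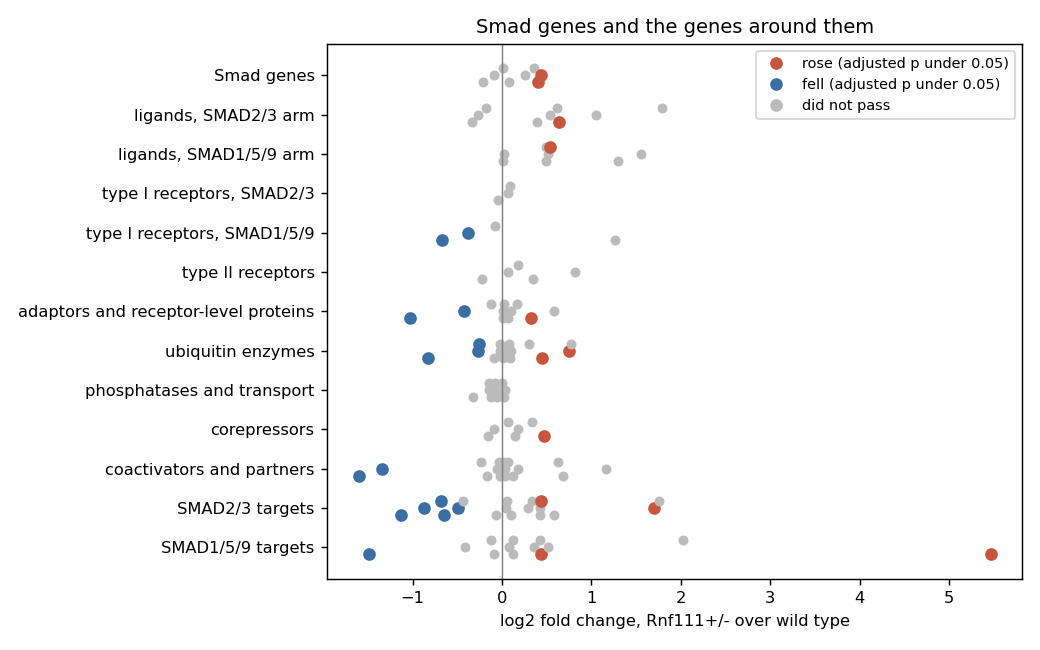
Log2 fold change, Rnf111+/- over wild type, of every tested gene in the Smad family and the lists around it, 1 row per list, with genes that rose in red, genes that fell in blue and the rest in grey. Points are shifted vertically only to separate them, and a gene in several lists appears in each. The Smad genes lie between -0.21 and 0.44, and Grem1 stands at 5.46 among the targets of the BMP arm.

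The Smad genes followed several patterns over the 6 libraries. Likeness of a pair was measured as the root mean square difference between their log2 CPM after centring each gene on its own mean, so that 0 is an identical pattern. The closest pair was Smad3 and Smad4 (0.089), followed by Smad6 and Smad7 (0.113) and Smad3 and Smad7 (0.113). Smad6 and Smad9 were the farthest apart (0.352). Smad2 and Smad3 of the same arm were at 0.217, and Smad5 and Smad9 at 0.332.

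Outside the family, the nearest profiles were sought among 10618 tested genes averaging 10 CPM or more, and the first 3 were listed for each Smad gene as a description over 6 libraries. For Smad3 they were Rbpj, the DNA-binding effector of Notch signalling (0.036), Lhfpl2 (0.037) and the pseudogene Rpl34-ps1 (0.040). For Smad7 they were Ccdc117 (0.040), Lca5 (0.049) and Plekhg3 (0.051), and for Smad6 they were Atp8a1 (0.050), the zinc-finger factor gene Sp4 (0.052) and Wdfy1 (0.059). For Smad4 they were the ubiquitin ligase gene Trim32 (0.024), Zfp451 (0.025) and Bcas3 (0.025). Smad2 was closest to Rnf215 (0.022), the histone deubiquitinase gene Usp22 (0.031) and Carnmt1 (0.034), all lowest in wild-type replicate 3. Smad1 was closest to Slc25a51 (0.029), Mrps22 (0.034) and Samd8 (0.036), and Smad5 to Chmp3 (0.026), Sirpa (0.031) and Mtrf1l (0.032), which were highest in wild-type replicate 3. The genes nearest to Smad9 were farther off, namely Smim3 (0.059), the angiotensinogen gene Agt (0.080) and Ipmk (0.081).

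The lowest Smad count, 562 reads of Smad9 in wild-type replicate 3, has a 95% Poisson interval of 516 to 610, and the highest, 8659 reads of Smad4 in Rnf111+/- replicate 2, one of 8478 to 8843. In wild-type libraries the coefficient of variation was 24.0% for Smad9 and 16.4% for Smad2, against 4.08% for Smad3 and 4.81% for Smad4. In Rnf111+/- libraries it was 1.80% for Smad2 and 16.2% for Smad6. These intervals cover counting error only.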

How the data were processed

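Ovary RNA of 6 mice (3 wild type, 3 Rnf111+/-) was profiled by bulk RNA sequencing. The authors deposited whole-number read counts per gene symbol. Per the submitters' processing notes, fastp (0.20.1), HISAT2 (2.1.0), HTSeq (0.11.2), DESeq2 (1.38.3) and GRCm39 were used. No role, annotation or strand setting is given in the sources used here. Every column had a sample (0 without one).

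Counts were tested with edgeR (4.0.16) in R (4.3.3): filterByExpr (minimum count 10, total 15), TMM scaling, and a robust two-sided quasi-likelihood test with genotype as the only term. Adjustment over the 16841 tested genes followed Benjamini-Hochberg, with calls under 0.05. Standard errors are the size of the log2 change over the root of its F statistic. Levels are TMM-scaled CPM, and log2 CPM used a prior count of 2. Scripts were tested on simulated data. Alternatives were 2 scalings, 2 filters, DESeq2 (1.42.0), limma-voom (3.58.1), a replicate block and leaving out each library; transcript lengths and list counts without wild-type replicate 3 were added after seeing the data. The members, gene lists and tests were chosen with earlier results of these data known. Named genes are all Smad genes, Rnf111, the called members of smallest p in each list (up to 3, or 1 where none was called) and the 3 nearest profiles of each Smad. The labels name separate mice. Even the closest pair of libraries differed beyond sampling noise (chi-square 11.8 times its degrees of freedom), so all were kept. Totals were 38261449 to 39474515 counts, where 3 counts equal 0.076 to 0.0784 CPM. Exons of Smad genes overlapped those of other annotated genes only at Smad5, where 100 bases are shared with a small RNA gene. Lengths come from GENCODE M21 (GRCm38), which holds 72.8% of the deposited symbols and all 8 Smad genes; promoters come from RefSeq. 1 called target gene is counted in its list but not reported here.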

Additional observations from a re-analysis of the deposited data

How the results depend on the processing

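Over 13 alternatives, 88 of 104 Smad values kept both direction and side of the threshold, 7 lost a call, 3 gained one and 6 changed sign. All sign changes were of uncalled genes when 1 library was left out: Smad2 ranged from -0.044 to 0.18, Smad5 from -0.032 to 0.13 and Smad9 from -0.25 to 0.079. With all libraries, DESeq2 called 2543 genes (1130 rising) against 1623 (657 rising and 966 falling) by edgeR, and limma-voom called 1 Smad gene against 2. Leaving out 1 library gave 530 to 2795 called genes (224 to 1273 rising, 297 to 1522 falling) and 0 to 2 Smad genes (0 to 2 rising), 0 without wild-type replicate 1 or Rnf111+/- replicate 2. The cause of these changes was not tested. The differences in class share between genotypes kept their sign under each length scaling and left-out library, but without wild-type replicate 3 those of Smad4 (0.729 points) and of Smad2 with Smad3 (1.005) shrank, as did that of the inhibitory pair without Rnf111+/- replicate 3 (0.908). With the replicate number as a block, 1626 genes and 2 Smad genes were called, and Rnf111 did not pass (adjusted p = 0.0653), as it did not with upper-quartile scaling (0.0602) or no filter (0.0762). Same-numbered libraries deviated together at correlations of 0.012, 0.0057 and 0.1, and not every library correlated best with its own number, so the numbers were not treated as pairs. The median log2 change of all genes by edgeR was -0.01 with TMM, 0.00061 with relative log expression (RLE) scaling and 0.02 with upper-quartile scaling. With 3 mice per group, small differences may not be detectable.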
